A study of Mus musculus with 24 samples.

Results

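Collagen chains outside the cartilage fibril were followed in mouse primary chondrocytes. Genes were taken when their symbol had the form of a collagen alpha chain, and the 8 chain genes of collagens II, IX, X, XI and XXVII were left out, which left 36 of the 17094 genes of the table. They fall into 7 fibrillar chains, 6 basement membrane chains of collagen IV, 3 chains of the basement membrane zone, 6 fibril-associated chains, 6 beaded filament chains of collagen VI, 2 chains of hexagonal networks, 4 transmembrane chains and 2 others. Of the 36, 24 reached 1 FPKM (fragments per kilobase of transcript, scaled to the mapped total) in at least 3 libraries and were tested.

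All cells were wild type, and the sources used here give no strain, age or sex for the animals. Cartilage was digested with collagenase II, and the chondrocytes were combined with primary dermal fibroblasts from skin in transwell chambers (co-culture) or grown without them (normal culture). Only RNA of chondrocytes, taken from the lower chamber, was sequenced. IL-1β, an inflammatory cytokine, was given at 10 ng/ml or left out, and chondrocytes were collected 72 h or 36 h after its addition. The 8 groups of 3 libraries, 24 in all, were co-culture with IL-1β, co-culture without IL-1β, normal culture with IL-1β and normal culture without IL-1β, each at 72 h and at 36 h. Nothing says that the libraries of a group came from separate animals, so the p-values measure the spread between libraries, which may be technical.

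Collagens are triple helices of alpha chains. Fibrillar collagens assemble into cross-linked fibrils, collagen IV forms the sheet of basement membranes, fibril-associated collagens (FACITs) sit on the fibril surface, and collagen VI forms beaded filaments, which in cartilage are concentrated in the pericellular matrix around each chondrocyte. Healthy chondrocytes make mainly collagen II, and a turn to collagens I and III is a known feature of chondrocytes that dedifferentiate in flat culture.

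Summed FPKM ran from 438242 to 506621 over the libraries, which each had 11335 to 11607 genes at or above 1 FPKM; the read depth is unknown, so no counting interval is given. Of 12 chondrocyte markers, 8 averaged at least 1 FPKM, while Matn1, a cartilage matrix protein, stayed under 0.1 FPKM in every library. Col1a1 exceeded the cartilage collagen gene Col2a1 in all 8 groups: the ratio of their FPKM was 7.9 ± 0.498 with IL-1β and 2.58 ± 0.102 without it in co-culture at 72 h, and 13.9 ± 0.258 and 8.24 ± 0.466 in normal culture at 36 h (SD, n = 3 each). Of 12 dermal fibroblast markers, 10 averaged at least 1 FPKM over all 24 libraries, and of 10 endothelial markers, 1 did. In normal culture, to which no dermal fibroblasts were added, the dermal fibroblast markers summed to 763 to 834 FPKM without IL-1β at 72 h. Ly6a, the most abundant of them, averaged 377 FPKM over the 24 libraries. The summed skeletal muscle markers, 11 of 12 at 1 FPKM or more on average, lay between 41.4 and 132 FPKM at 72 h and between 214 and 299.7 FPKM at 36 h.

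Together the 36 chains made up 1.15 ± 0.0824% of all FPKM with IL-1β, against 1.52 ± 0.0178% without it, in co-culture at 72 h, and 1.08 ± 0.0643% against 1.45 ± 0.0185% in normal culture at 72 h. At 36 h the shares were 1.6 ± 0.0228% with IL-1β, against 2.13 ± 0.0336% without it, in co-culture, and 1.6 ± 0.0522% against 2.23 ± 0.045% in normal culture (SD, n = 3). The share was lower with IL-1β than without it in each culture at each time, and lower at 72 h than at 36 h in each condition, with no overlap between the compared libraries. Fibrillar chains carried most of it: their summed level was 4675 ± 103 FPKM with IL-1β and 5589 ± 74 FPKM without it in co-culture at 72 h. Collagen VI came next, with 376 ± 19.1 FPKM with IL-1β and 751 ± 15.7 FPKM without it in the same cultures.

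The 12 chains that were not tested were near the floor of the assay in these cells. None exceeded 0.79 FPKM in any library, and 10 of them stayed under 0.5 FPKM throughout. Their highest group means were 0.73 FPKM for Col25a1, 0.49 for Col22a1, 0.33 for Col6a6, 0.237 for Col19a1, 0.21 for Col26a1, 0.183 for Col17a1 and 0.18 for Col4a6. For Col6a5 the highest was 0.163 FPKM, for Col13a1 0.0833, for Col6a4 0.0767, for Col4a4 0.070 and for Col4a3 0.0433. This group held Col4a3 and Col4a4 of kidney-type collagen IV, though not Col4a5. It also held the alternative chains of collagen VI (Col6a4, Col6a5, Col6a6) and 3 of 4 transmembrane collagens (Col13a1, Col17a1, Col25a1).

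The tested chains ranged widely. The highest group mean was 2489 FPKM for Col1a1, 2485 for Col1a2, 2162 for Col3a1, 864 for Col5a2, 463 for Col5a1, 77.1 for Col5a3 and 1.94 for Col24a1. Among the chains of basement membranes and their surroundings it was 102 FPKM for Col4a1, 86.1 for Col4a2, 8.09 for Col4a5, 87.7 for Col18a1, 7.65 for Col15a1 and 1.17 for Col7a1. Among the FACIT chains it was 268 FPKM for Col12a1, 72.6 for Col16a1, 45.2 for Col14a1 and 1.62 for Col20a1. Collagen VI reached 582 FPKM in Col6a1, 423 in Col6a2 and 189 in Col6a3, and the rest 67 in Col8a1, 36.3 in Col8a2, 7.06 in Col28a1 and 2.86 in Col23a1. Exons of other annotated genes overlap some members by at most 212 bases among the tested ones (Col5a1), and whether counting used strand is not given in the sources used here.

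**Figure D1:**
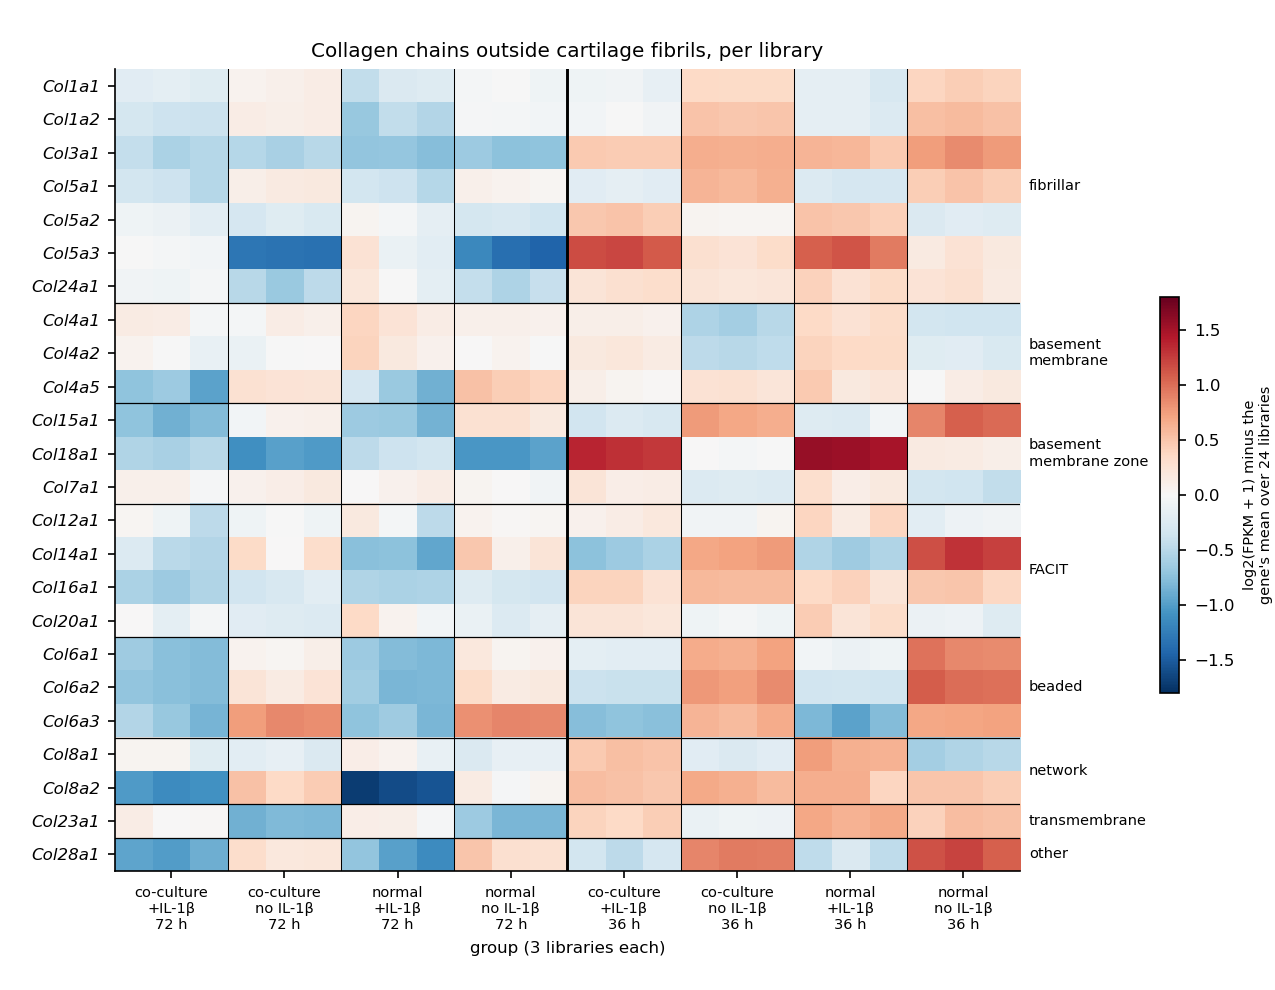
Each row is 1 of the 24 tested collagen chains and each column 1 library, ordered by group. Colour gives log2(FPKM + 1) minus that gene's mean over the 24 libraries, red for higher and blue for lower; the collagen VI rows run from pale to blue in the IL-1β columns and are red in the columns without IL-1β at 36 h, and the darkest cells of the Col8a2 row are the IL-1β columns at 72 h.

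The first question of the design is what IL-1β did to chondrocytes in each culture. Changes are differences of log2(FPKM + 1), with 1 meaning a doubling except in genes near 0, and a change passed when limma's p, adjusted by Benjamini-Hochberg over the 12178 genes tested, was under 0.05. In co-culture at 72 h 5 of the 24 chains were higher with IL-1β, where 18.5% of all genes were, and 12 were lower, where 30.6% were. In normal culture at 72 h 9 were higher (23.1% of all genes) and 12 lower (40.3%). At 36 h 9 were higher (23.4%) and 11 lower (35.3%) in co-culture, and 10 were higher (25.9%) and 11 lower (41.5%) in normal culture. These 4 comparisons share no library. Across them 10 chains were lower in every one (18.2% of all genes) and 4 were higher in every one (11.3%). The 10 were Col1a1, Col1a2, Col5a1, Col14a1, Col15a1, Col16a1, Col28a1 and the 3 collagen VI chains, and the 4 were Col5a2, Col5a3, Col18a1 and Col23a1. The median change of the 24 chains was -0.21, -0.20, -0.15 and 0.09 in co-culture at 72 h, normal culture at 72 h, co-culture at 36 h and normal culture at 36 h, against -0.06, -0.08, -0.06 and -0.09 for all genes tested. Beside these changes the summed chondrocyte markers were 288 to 332 FPKM in the IL-1β libraries and 785 to 1141 FPKM in those without, and the summed dermal fibroblast markers 415 to 507 FPKM and 684 to 834 FPKM. Macrophage and myeloid markers, 9 of 10 at 1 FPKM or more on average, moved the opposite way: they summed to 134 to 157 FPKM with IL-1β and 98.1 to 109 FPKM without it at 72 h, and to 68.7 to 82.8 FPKM and 52.5 to 62.4 FPKM at 36 h. At 72 h the summed muscle markers were also higher with IL-1β, 85.5 to 132 FPKM against 41.4 to 65.3 FPKM without it, while at 36 h they overlapped in each culture. Also at 72 h, the pericyte and smooth muscle markers (6 of 8 at 1 FPKM or more) summed to 80.4 to 91.2 FPKM with IL-1β and 110.2 to 120.3 FPKM without it, and the epithelial markers (2 of 6 at 1 FPKM or more, Cdh1 under 0.1 FPKM in every library) to 2.06 to 4.68 FPKM and 15.1 to 21.9 FPKM. Here fewer cells of a type and less RNA per cell cannot be told apart in bulk RNA, and the part of cell make-up in the changes was not tested.

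**Figure D2:**
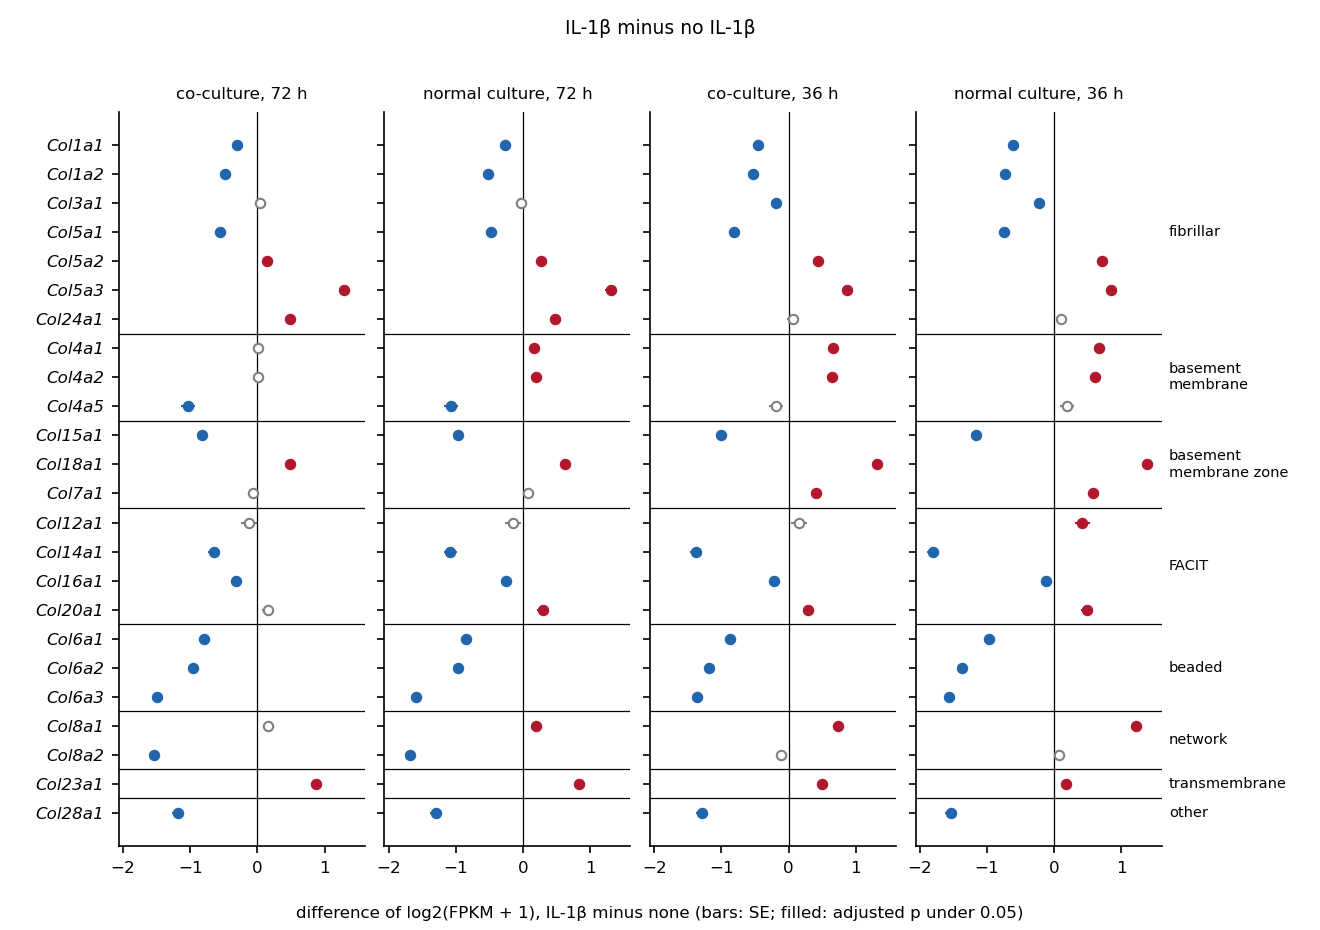
Points give the difference of log2(FPKM + 1), IL-1β minus none, for each tested chain in co-culture and normal culture at 72 h and at 36 h; bars are standard errors and filled points passed at an adjusted p under 0.05. Col6a3 lies between -1.36 and -1.59 in all 4 panels, and Col8a2 and Col4a5 are filled and left of -1 at 72 h and open, within 0.2 of 0, at 36 h.

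Among the fibrillar chains, IL-1β lowered Col5a1 and both chains of collagen I, the main collagen of bone, tendon and skin. It raised Col5a2 and Col5a3. In each culture 3 of 7 chains were higher and 3 lower at 72 h, and 2 higher and 4 lower at 36 h. Of all genes, 18.5% were higher and 30.6% lower in co-culture at 72 h, and 23.1% and 40.3% in normal culture. At 36 h these shares were 23.4% and 35.3% in co-culture, and 25.9% and 41.5% in normal culture. The 3 of 7 lower in normal culture at 72 h and the 2 of 7 higher at 36 h are near the shares of all genes. Col1a1 is on chromosome 11 (GRCm38, 94936224 to 94953042, plus strand). It had 1629, 1651 and 1611 FPKM with IL-1β, against 1962, 1988 and 2059 FPKM without it, in co-culture at 72 h. It had 1669, 1671 and 1528 FPKM with IL-1β, against 2458, 2537 and 2474 FPKM without it, in normal culture at 36 h. The IL-1β libraries were lower in both settings with no overlap. The changes were -0.30 in co-culture at 72 h (SE 0.06, limma adjusted p = 0.000114) and -0.62 in normal culture at 36 h (SE 0.06, adjusted p = 1.51e-09), with -0.27 in normal culture at 72 h and -0.45 in co-culture at 36 h. Col1a2, its partner chain, had 1363, 1318 and 1309.7 FPKM with IL-1β, against 1878, 1835 and 1868 FPKM without it, in co-culture at 72 h. Its change was -0.48 there (SE 0.05, adjusted p = 6.25e-08) and -0.73 in normal culture at 36 h (SE 0.05, adjusted p = 2.92e-11), larger in size than that of Col1a1 in each of the 4 comparisons.

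Col3a1, which co-assembles with collagen I in skin and vessels, was of the same order as collagen I at 36 h and had small changes under IL-1β. At 72 h in normal culture it had 761, 767 and 731 FPKM with IL-1β, against 789.9, 749 and 757 FPKM without it, and these libraries overlapped (-0.02, limma adjusted p = 0.691). In normal culture at 36 h it had 1904, 1886 and 1734 FPKM with IL-1β, against 2110.3, 2251 and 2125 FPKM without it (-0.23, SE 0.05, adjusted p = 0.000255). The difference between the times passed in both cultures (0.23 in co-culture, adjusted p = 0.0164; 0.21 in normal culture, adjusted p = 0.0183). In normal culture that call was lost without replicate 3 with IL-1β at 36 h (0.17) or replicate 2 without IL-1β at 36 h (0.18), and after rescaling to TPM (0.15).

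Collagen V is a minor fibrillar collagen that seeds and limits the growth of collagen I fibrils, and its 3 chains went different ways under IL-1β. Col5a1 had 254, 244 and 244 FPKM with IL-1β, against 412, 432 and 409.7 FPKM without it, in normal culture at 36 h (-0.75, SE 0.05, limma adjusted p = 6.94e-12). Col5a2, in the same libraries, had 883, 865 and 832 FPKM with IL-1β, against 518, 538 and 525 FPKM without it (0.70, SE 0.05, adjusted p = 2.56e-11). Neither gene's groups overlapped, and the directions were opposite. At 72 h in co-culture the same chains had -0.56 (Col5a1) and 0.14 (Col5a2, adjusted p = 0.0201), and Col5a2 no longer passed after rescaling to TPM (0.05), with the 2 groups fitted alone, or without any 1 of 4 libraries (0.12 to 0.14; replicates 1 and 2 with IL-1β, 1 and 3 without it). Col5a3, the rarest of the collagen V chains here, had 33.6, 33.1 and 32.8 FPKM with IL-1β, against 13.2, 12.9 and 12.8 FPKM without it, in co-culture at 72 h. The 72 h libraries of normal culture had 40.8, 31.2 and 29.5 FPKM of Col5a3 with IL-1β, against 14.6, 12.6 and 11.8 FPKM without it. Every IL-1β library was above every library without it, and replicate 1 was the highest with IL-1β in normal culture. Its changes were 1.29 (SE 0.08, adjusted p = 1.03e-11) and 1.31 (SE 0.08, adjusted p = 6.44e-12) at 72 h, and 0.88 and 0.85 in co-culture and normal culture at 36 h. Col24a1, a minor fibrillar chain, reached at most 2.11 FPKM and was higher with IL-1β at 72 h (0.48 in co-culture, 0.48 in normal culture) but did not pass at 36 h (0.06 and 0.10). Col5a2 and Col3a1 are neighbours on opposite strands of chromosome 1, 24.6 kb apart (GRCm38), and had changes of opposite sign at 36 h.

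**Figure D3:**
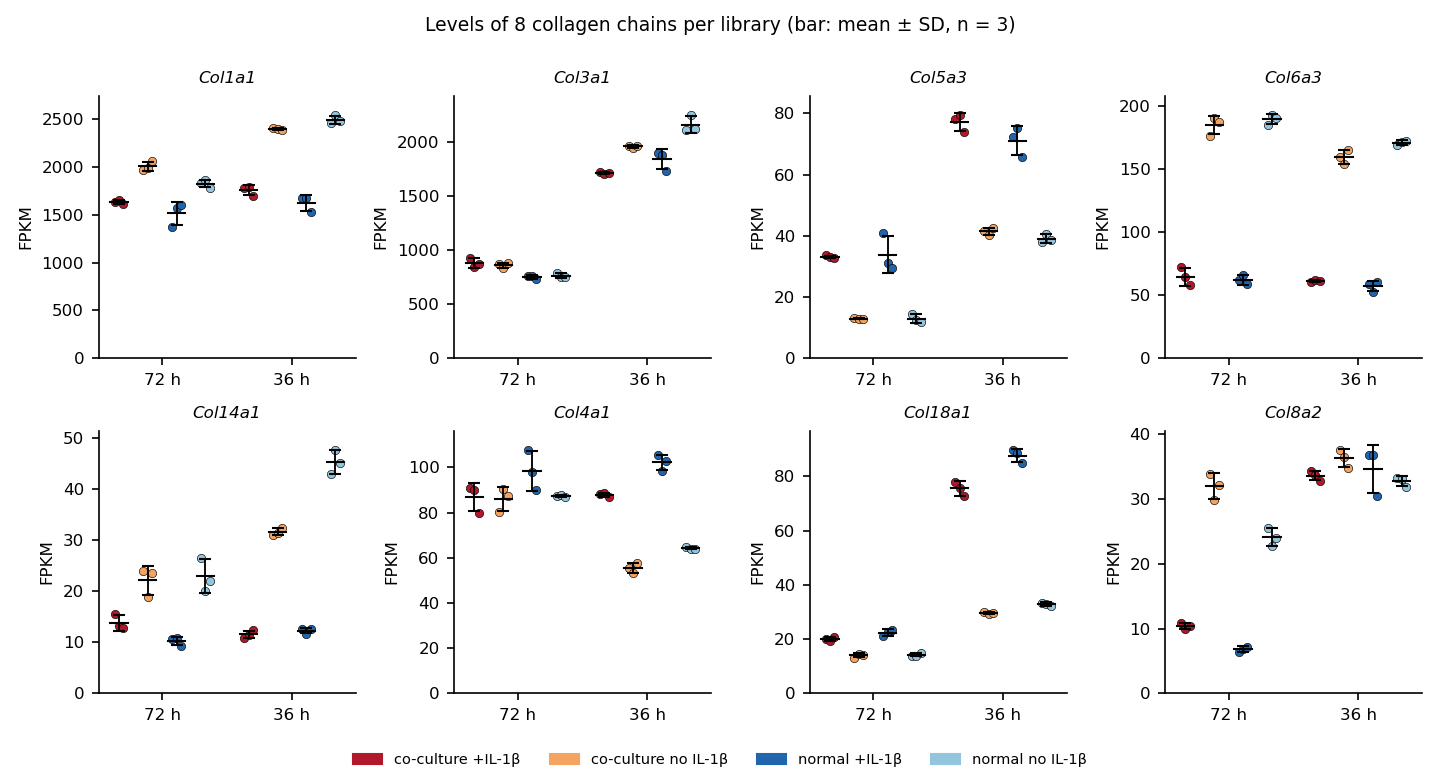
FPKM of 8 chains in each library (points), with mean ± SD of the 3 libraries of each group (bars), at 72 h on the left and 36 h on the right of each panel. Col6a3 lies between 52.6 and 72 FPKM in all IL-1β groups and between 154 and 192.5 FPKM in all groups without IL-1β; Col18a1 is highest with IL-1β at 36 h.

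Collagen IV, made in most tissues of Col4a1 and Col4a2, forms the network of basement membranes, and its 2 main chains were raised by IL-1β at 36 h in both cultures, while Col4a5, a chain of a second collagen IV network, was lowered at 72 h in both. Col4a1 and Col4a2 lie head to head on chromosome 8 (GRCm38): Col4a1 spans 11198423 to 11312826 on the minus strand and Col4a2 spans 11312805 to 11449287 on the plus strand, so their transcripts overlap by 22 bases and their promoter windows (from 250 bases before the start to 50 after it, RefSeq, GRCm38.p6) share 78 bases. Both windows are shown because the pair share 1 promoter region and had like changes under IL-1β. Capitals mark GGGCGG or CCAAT on either strand.
Col4a1: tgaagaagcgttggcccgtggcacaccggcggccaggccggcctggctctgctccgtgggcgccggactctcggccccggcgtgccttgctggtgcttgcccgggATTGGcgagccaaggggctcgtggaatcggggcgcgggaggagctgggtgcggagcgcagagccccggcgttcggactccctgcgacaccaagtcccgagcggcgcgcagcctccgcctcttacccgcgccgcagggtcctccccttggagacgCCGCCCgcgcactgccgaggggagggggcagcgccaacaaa
Col4a2: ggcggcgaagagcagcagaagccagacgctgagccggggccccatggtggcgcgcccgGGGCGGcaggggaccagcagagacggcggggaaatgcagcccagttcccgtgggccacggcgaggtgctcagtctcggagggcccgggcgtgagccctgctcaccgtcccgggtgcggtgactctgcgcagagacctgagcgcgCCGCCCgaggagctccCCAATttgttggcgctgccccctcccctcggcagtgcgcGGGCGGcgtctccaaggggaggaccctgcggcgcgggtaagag
The first window is chr8:11312777-11313076, minus strand, and the second chr8:11312555-11312854, plus strand. GGGCGG occurs in the windows of 38.2% of 27025 genes and CCAAT in 41.1%, and no matches overlap within either window. The CCGCCC of the Col4a1 window and the last GGGCGG of the Col4a2 window are the same site, in the shared bases, read on opposite strands.

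Col4a1 had 88.1, 88.6 and 86.9 FPKM with IL-1β, against 55.4, 53.2 and 57.7 FPKM without it, in co-culture at 36 h. Col4a2 had 75, 76.5 and 73.7 FPKM with IL-1β, against 47.7, 46.9 and 48.2 FPKM without it, in the same libraries. Both rose with no overlap, by 0.66 (Col4a1, SE 0.06, limma adjusted p = 1.61e-09) and 0.65 (Col4a2, SE 0.06, adjusted p = 4.75e-09), and by 0.66 and 0.60 in normal culture. At 72 h in co-culture Col4a1 had 90.7, 89.9 and 79.8 FPKM with IL-1β, against 80.4, 90.5 and 87.2 FPKM without it, and the libraries overlapped (0.01, adjusted p = 0.869). In normal culture at 72 h Col4a1 (0.17, adjusted p = 0.0139) and Col4a2 (0.20, adjusted p = 0.00596) passed, but not after rescaling to TPM (0.05 and 0.08), with the 2 groups fitted alone, or without replicate 1 with IL-1β (0.10 and 0.11). The smaller response at 72 h was itself past the threshold in co-culture (-0.64 for Col4a1, -0.64 for Col4a2) and normal culture (-0.49 and -0.40). Col4a5, on chromosome X (GRCm38, 141475385 to 141689234, plus strand), had 3.01, 3.21 and 2.41 FPKM with IL-1β, against 7.0, 6.86 and 6.8 FPKM without it, in co-culture at 72 h. It had 4.36, 3.19 and 2.63 FPKM with IL-1β, against 8.55, 8.06 and 7.66 FPKM without it, in normal culture at 72 h. It fell in both, by 1.03 and 1.07 (SE 0.10, adjusted p = 7.57e-09), and gave -0.19 and 0.19 at 36 h, neither past the threshold.

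The 3 chains that lie beside basement membranes split. Col18a1, the multiplexin whose end fragment is endostatin, had the largest rise of the 24 chains at 36 h. It had 78.1, 75.6 and 72.9 FPKM with IL-1β, against 29.9, 29.1 and 29.7 FPKM without it, in co-culture at 36 h. It had 89.7, 88.4 and 84.9 FPKM with IL-1β, against 33.5, 33 and 32.2 FPKM without it, in normal culture at 36 h. The IL-1β libraries stood far above the others, with changes of 1.32 (SE 0.05, limma adjusted p = 1.45e-16) and 1.39 (SE 0.05, adjusted p = 4.28e-17). The changes at 72 h, 0.49 in co-culture and 0.63 in normal culture, also passed, and the difference between times passed (-0.83 in co-culture, -0.76 in normal culture). Col15a1, the other multiplexin, went the opposite way. It had 2.43, 2.67 and 2.57 FPKM with IL-1β, against 6.41, 6.06 and 5.86 FPKM without it, in co-culture at 36 h (-1.0, SE 0.07, adjusted p = 5.58e-11). In normal culture at 36 h it had 2.69, 2.65 and 3.22 FPKM with IL-1β, against 7.01, 8.15 and 7.8 FPKM without it (-1.17, SE 0.07, adjusted p = 2.21e-12). The groups were apart in both, and the changes at 72 h were -0.83 in co-culture and -0.97 in normal culture. Col7a1, which forms the anchoring fibrils of skin, had 1.33, 1.06 and 1.13 FPKM with IL-1β, against 0.50, 0.48 and 0.39 FPKM without it, in normal culture at 36 h (0.58, SE 0.06, adjusted p = 4.12e-08). It passed at 36 h in co-culture too (0.41) and at 72 h in neither culture (-0.07 and 0.08).

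Of the 4 tested FACIT chains, Col14a1 and Col16a1 were lower with IL-1β in every comparison and Col20a1 was higher in 3 of 4. Col14a1, which binds the fibril surface through decorin, had 12.6, 11.6 and 12.5 FPKM with IL-1β, against 43, 47.6 and 45.1 FPKM without it, in normal culture at 36 h. In co-culture at 36 h it had 10.8, 11.4 and 12.3 FPKM with IL-1β, against 31, 31.4 and 32.4 FPKM without it. The IL-1β libraries had levels close to each other in both cultures, and those without IL-1β were higher in normal culture. On the log2(FPKM + 1) scale the fall in normal culture was the largest of the 24 chains at 36 h (-1.8, SE 0.09, limma adjusted p = 1.21e-13). The fall in co-culture was -1.38 (adjusted p = 2.09e-11). By the ratio of mean FPKM, Col28a1 fell further in normal culture at 36 h (1.79 FPKM with IL-1β against 7.06 without it). Col14a1 averaged 12.2 against 45.2 FPKM there. At 72 h in normal culture Col14a1 had 10.7, 10.8 and 9.25 FPKM with IL-1β, against 26.5, 20.1 and 22.1 FPKM without it (-1.08, SE 0.09, adjusted p = 1.16e-09), and the change in co-culture at 72 h was -0.64. Col12a1, the most abundant FACIT chain, had 220.2, 204 and 155 FPKM with IL-1β, against 204, 214 and 205 FPKM without it, in co-culture at 72 h, and replicate 3 with IL-1β was the lowest of all 6. Its change passed in normal culture at 36 h alone (0.42, SE 0.12, adjusted p = 0.00331). Col16a1 had 32.2, 30.5 and 32.9 FPKM with IL-1β, against 38, 39.7 and 42.2 FPKM without it, in co-culture at 72 h (-0.32, adjusted p = 3e-05). Its change in normal culture at 36 h, -0.12 with overlapping libraries (adjusted p = 0.0451), was lost under several settings, among them no filter on low values (-0.12), median-of-ratios scaling (-0.05) and leaving out any 1 of 4 libraries (-0.07 to -0.13; replicates 1 and 3 with IL-1β, 1 and 2 without it). Col20a1, at most 1.84 FPKM, changed by 0.48 in normal culture at 36 h.

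Collagen VI, whose beaded filaments surround chondrocytes, fell with IL-1β in all 3 of its tested chains in all 4 comparisons. Its usual molecule takes 1 each of the chains Col6a1, Col6a2 and Col6a3. The windows at their starts are shown because the 3 chains fell together; Col6a1 and Col6a2 lie on the minus strand of chromosome 10, 85.2 kb apart, and Col6a3 on the minus strand of chromosome 1 (RefSeq, GRCm38.p6). Capitals mark TGACTCA or GGGCGG on either strand.
Col6a1: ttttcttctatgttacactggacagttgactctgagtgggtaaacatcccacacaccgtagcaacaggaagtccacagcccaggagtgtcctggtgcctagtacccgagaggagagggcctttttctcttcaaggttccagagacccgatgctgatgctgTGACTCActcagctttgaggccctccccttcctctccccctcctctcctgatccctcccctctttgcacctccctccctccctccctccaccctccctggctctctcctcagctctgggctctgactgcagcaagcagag
Col6a2: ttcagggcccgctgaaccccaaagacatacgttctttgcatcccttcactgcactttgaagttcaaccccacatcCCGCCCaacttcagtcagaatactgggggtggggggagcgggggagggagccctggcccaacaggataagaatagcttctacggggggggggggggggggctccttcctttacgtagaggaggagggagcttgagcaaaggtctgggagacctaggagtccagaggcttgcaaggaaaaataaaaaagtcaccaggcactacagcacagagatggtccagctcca
Col6a3: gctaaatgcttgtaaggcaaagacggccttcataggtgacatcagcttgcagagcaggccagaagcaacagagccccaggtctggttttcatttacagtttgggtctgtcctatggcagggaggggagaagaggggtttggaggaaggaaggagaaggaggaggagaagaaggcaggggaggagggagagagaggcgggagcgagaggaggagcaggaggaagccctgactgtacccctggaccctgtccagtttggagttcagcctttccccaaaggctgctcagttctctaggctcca
The RefSeq table holds a second window for Col6a2, and the one at its GENCODE start is shown. These are chr10:76725995-76726294, chr10:76623581-76623880 and chr1:90843922-90844221. Col6a1 was the only one of 29 chains with a window to hold TGACTCA, the letters of an AP-1 site, which 5.95% of genes hold. The Col6a3 window had none of the 5 motifs searched. Of the 29 chains with a window, 18 held GGGCGG (38.2% of genes) and 11 held CCAAT (41.1%) in any of their windows. The TATA box, searched as TATAAA, was in 3 of 29 (15.7% of genes), and the kappaB motif in 1 of 29 (Col6a4, 5.14% of genes). A match is a description of letters and not of a bound site.

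Col6a3 had 72, 64.2 and 58 FPKM with IL-1β, against 176, 189.9 and 187 FPKM without it, in co-culture at 72 h. The normal cultures at 72 h had 62.2, 66.3 and 58.6 FPKM of Col6a3 with IL-1β, against 185, 192 and 191 FPKM without it. Every library with IL-1β was below every library without it, and the 2 cultures lay close together. The changes were -1.5 (SE 0.06, limma adjusted p = 3.7e-15) and -1.59 (SE 0.06, adjusted p = 9.28e-16) at 72 h. At 36 h it had 60.5, 62.4 and 61.5 FPKM with IL-1β, against 159.7, 154 and 165 FPKM without it, in co-culture (-1.36, SE 0.06, adjusted p = 1.9e-14), and the change in normal culture was -1.56. The IL-1β levels of Col6a3 were much the same at both times. Col6a1, the most abundant chain of the 3, had 275, 272.2 and 273 FPKM with IL-1β, against 495, 484 and 518 FPKM without it, in co-culture at 36 h (-0.86, SE 0.05, adjusted p = 1.53e-12). Its other changes ran between -0.79 and -0.98. Col6a2 had 159, 157 and 157 FPKM with IL-1β, against 355, 345 and 373 FPKM without it, in the same libraries (-1.18, SE 0.05, adjusted p = 1.58e-14), and its other changes ran between -0.96 and -1.37. Col28a1, which shares von Willebrand factor A domains with collagen VI, had 0.88, 0.81 and 0.98 FPKM with IL-1β, against 3.53, 3.14 and 3.18 FPKM without it, in co-culture at 72 h. It too was lower with no overlap (-1.18, SE 0.09, adjusted p = 1.37e-10), with -1.3 in normal culture at 72 h. At 36 h it had 1.65, 2.05 and 1.66 FPKM with IL-1β, against 7.05, 7.49 and 6.64 FPKM without it, in normal culture (-1.53, SE 0.09, adjusted p = 7.57e-13), and the change in co-culture was -1.29.

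Collagen VIII, a short-chain collagen of hexagonal networks known from vessel walls and the cornea, showed a change of its 2 chains at different times. In normal culture at 72 h Col8a2 had 6.37, 6.88 and 7.21 FPKM with IL-1β, against 25.6, 22.7 and 24 FPKM without it (-1.68, SE 0.06, limma adjusted p = 6.28e-16). In co-culture at 72 h it had 10.9, 9.96 and 10.3 FPKM with IL-1β, against 33.9, 29.9 and 32.2 FPKM without it (-1.53, adjusted p = 4.71e-15). Each was the largest fall of the 24 chains in its own comparison on the log2(FPKM + 1) scale, which compresses changes of chains near 1 FPKM. By the ratio of mean FPKM, Col28a1 fell further in both. It averaged 0.89 FPKM with IL-1β against 3.28 without it in co-culture at 72 h, and 0.907 against 3.67 FPKM in normal culture. Col8a1 at 72 h gave 0.16 in co-culture (adjusted p = 0.055) and 0.20 in normal culture (adjusted p = 0.0131), a call lost after rescaling to TPM (0.08), with the 2 groups fitted alone, or without replicate 1 or 2 with IL-1β or replicate 1 without it (0.15 to 0.17). Col8a1 had 70.8, 65.5 and 64.7 FPKM with IL-1β, against 26.8, 28.5 and 29.2 FPKM without it, in normal culture at 36 h (1.22, SE 0.07, adjusted p = 3.21e-13). Col8a2 in the same libraries had 36.7, 36.8 and 30.4 FPKM with IL-1β, against 33.2, 33.2 and 31.9 FPKM without it, and these overlapped (0.07, adjusted p = 0.307). At 36 h Col8a1 was higher and Col8a2 did not pass. The difference between times passed for both chains in both cultures, with -1.76 for Col8a2 and -1.02 for Col8a1 in normal culture. Col23a1, the 1 transmembrane chain tested, had 1.66, 1.43 and 1.47 FPKM with IL-1β, against 0.33, 0.40 and 0.38 FPKM without it, in co-culture at 72 h (0.88, SE 0.06, adjusted p = 5.1e-11). It was also higher in normal culture at 72 h (0.84) and in co-culture at 36 h (0.49); the change in normal culture at 36 h (0.17, adjusted p = 0.0179) was lost after rescaling to TPM (0.15), with a pseudocount of 0.1 (0.23) or without replicate 1 of either group (0.13 to 0.16).

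Since chains of 1 collagen assemble together, the ratio of their FPKM was compared per library. For Col5a1 over Col5a2 it was 0.401 ± 0.00928 with IL-1β and 0.653 ± 0.0152 without it in co-culture at 72 h, and 0.288 ± 0.00567 with IL-1β and 0.792 ± 0.0112 without it in normal culture at 36 h (SD, n = 3). For Col8a1 over Col8a2 it was 6.24 ± 0.941 with IL-1β and 1.53 ± 0.157 without it in normal culture at 72 h, and 3.92 ± 0.425 and 1.14 ± 0.108 in co-culture. Col6a3 over Col6a1 was 0.343 ± 0.0215 with IL-1β and 0.564 ± 0.028 without it in co-culture at 72 h. These groups did not overlap. Col6a1 over Col6a2 (for example 1.74 ± 0.00776 with IL-1β and 1.4 ± 0.00793 without it in co-culture at 36 h) and Col1a1 over Col1a2 (1.23 ± 0.0291 and 1.08 ± 0.0295 in co-culture at 72 h) were higher with IL-1β with no overlap in each of the 4 comparisons. Col4a1 over Col4a2, the head-to-head pair, overlapped between IL-1β and no IL-1β in all 4, for example 1.17 ± 0.0106 with IL-1β and 1.16 ± 0.0306 without it in co-culture at 36 h. The ratio of this pair did differ with time. It was higher at 72 h with no overlap in both cultures, with and without IL-1β. In normal culture without IL-1β it was 1.295 ± 0.0282 at 72 h and 1.14 ± 0.0258 at 36 h. Under IL-1β at 72 h it was also higher in co-culture, 1.328 ± 0.0291 against 1.265 ± 0.0418 in normal culture, without overlap. With 3 libraries a group, the two-sided exact permutation test cannot go below p = 0.1, which every ratio without overlap reached, and 72 such tests over 6 ratios were run, so none can pass 0.05.

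**Figure D4:**
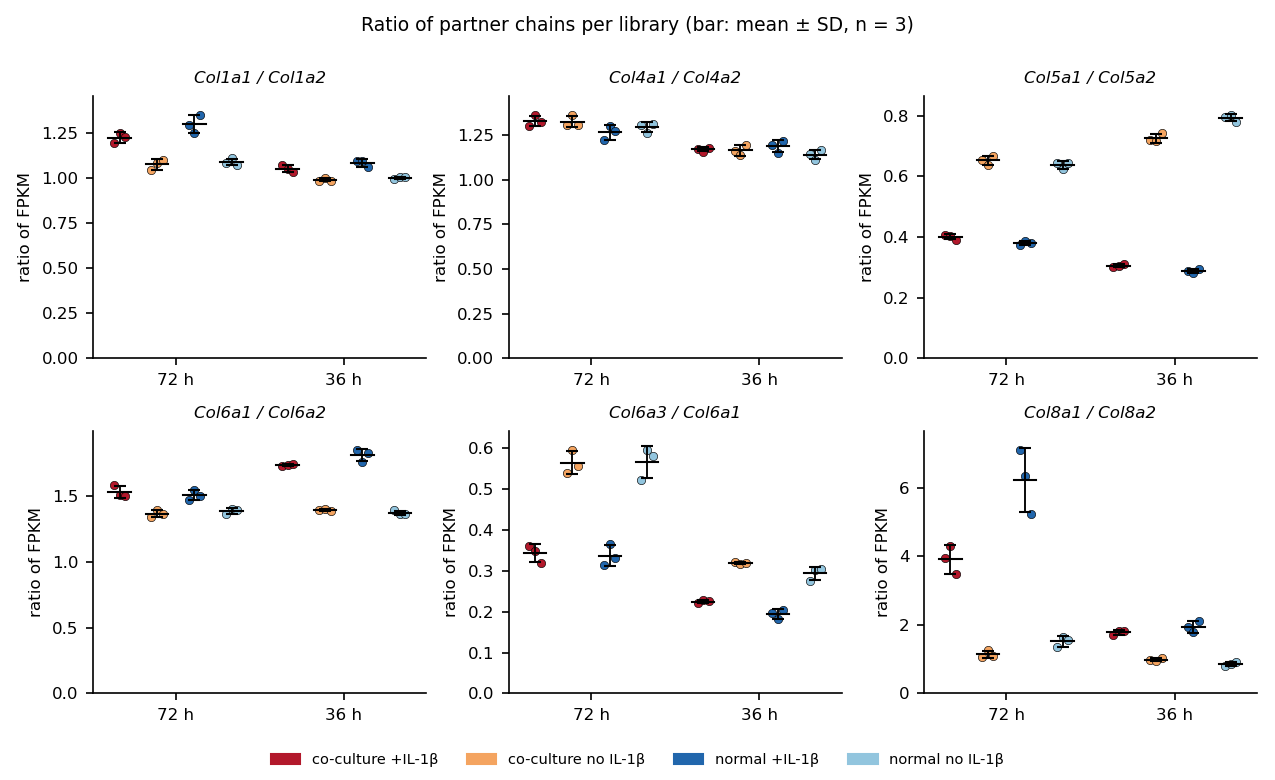
Ratio of the FPKM of 2 chains of the same collagen in each library (points), with mean ± SD of the 3 libraries of each group (bars). The 6 ratios are laid out by collagen; Col5a1 / Col5a2 is lower and Col8a1 / Col8a2 higher with IL-1β at both times, and the Col4a1 / Col4a2 points with and without IL-1β overlap in both cultures at both times.

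The second question is what the presence of fibroblasts did, with and without IL-1β. The comparisons share their libraries with those of IL-1β above. Fewer chains passed for co-culture than for IL-1β in each setting. With IL-1β at 72 h 7 of 24 chains passed, where 12.5% of all genes did, 4 higher and 3 lower. Without IL-1β at 72 h 1 passed (3.4% of all genes; Col8a2), with 6 at an unadjusted p under 0.05. With IL-1β at 36 h 4 passed, all lower (10.6%), and without IL-1β at 36 h 11 passed (15.5%), 3 higher and 8 lower. The count of 11 became 8 to 10 when 1 library of the compared groups was left out. The summed dermal fibroblast markers were not higher in co-culture: without IL-1β they were 684 to 735 FPKM in co-culture and 763 to 834 FPKM in normal culture at 72 h, and 688 to 719 FPKM and 765 to 789 FPKM at 36 h. With IL-1β they were 415 to 482 FPKM in co-culture and 467 to 504 FPKM in normal culture at 72 h, and 480.1 to 502 FPKM and 493 to 507 FPKM at 36 h. The summed skeletal muscle markers were lower in co-culture under IL-1β at 36 h, 227 to 243 FPKM against 274 to 299.7 FPKM in normal culture, and higher at 72 h both with IL-1β, 100.3 to 132 FPKM against 85.5 to 97.9 FPKM, and without it, 56.4 to 65.3 FPKM against 41.4 to 48.5 FPKM. Without IL-1β at 36 h, the comparison with 11 chains passing, the summed chondrocyte markers were higher in co-culture, 863 to 889.7 FPKM against 785 to 816 FPKM in normal culture. Not every marker went this way. Col2a1, the most abundant, averaged 393 FPKM in co-culture and 302 FPKM in normal culture. Acan was also higher in co-culture (13.65 against 9.85 FPKM), while Sox9 was lower (26.1 against 30.3 FPKM). The part of these lists in the changes below was not tested.

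Col4a1, Col4a2 and Col18a1 were lower in co-culture in 3 of the 4 comparisons, and the other tested collagen IV chain, Col4a5, passed in none (-0.22 to 0.16). Col4a2 had 69.6, 66.1 and 60.4 FPKM in co-culture, against 88.2, 75.2 and 70.5 FPKM in normal culture, under IL-1β at 72 h (-0.25, SE 0.06, limma adjusted p = 0.0107). Col4a1 had 55.4, 53.2 and 57.7 FPKM in co-culture, against 64.9, 63.9 and 64 FPKM in normal culture, without IL-1β at 36 h (-0.21, SE 0.06, adjusted p = 0.0139). Col18a1 had 78.1, 75.6 and 72.9 FPKM in co-culture, against 89.7, 88.4 and 84.9 FPKM in normal culture, under IL-1β at 36 h (-0.21, SE 0.05, adjusted p = 0.00335). The co-culture libraries were lower with no overlap in these 3 examples; under IL-1β at 72 h the Col4a1 libraries overlapped (-0.18, adjusted p = 0.0433). Without IL-1β at 72 h the 3 genes had -0.02, -0.06 and -0.02, none past the threshold. Several of these small changes did not hold throughout: under IL-1β at 36 h Col4a2 (-0.19) was lost under TPM, under median-of-ratios scaling, with no filter and without any 1 of the 6 libraries (-0.18 to -0.21), and Col4a1 (-0.22) without replicate 1 or 3 of normal culture or replicate 3 of co-culture (-0.19 to -0.21), which left 2 chains of the 4. Without IL-1β at 36 h, Col4a1 was lost under TPM (-0.22) and without normal culture replicate 1 (-0.20) or co-culture replicate 2 (-0.18), and Col18a1 (-0.15) under median-of-ratios scaling (-0.12) and without any co-culture replicate or normal culture replicate 1 or 2 (-0.14 to -0.16). Under IL-1β at 72 h, Col4a2 was lost without normal culture replicate 1 (-0.16), Col4a1 without replicate 1 or 2 of normal culture or 2 or 3 of co-culture (-0.11 to -0.20), and Col18a1 (-0.15) without replicate 2 or 3 of normal culture or 1 or 2 of co-culture (-0.12 to -0.15).

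Col8a2 gave the largest rise in co-culture. Under IL-1β at 72 h it had 10.9, 9.96 and 10.3 FPKM in co-culture, against 6.37, 6.88 and 7.21 FPKM in normal culture (0.54, SE 0.06, limma adjusted p = 5.66e-05). Without IL-1β at 72 h it had 33.9, 29.9 and 32.2 FPKM in co-culture, against 25.6, 22.7 and 24 FPKM in normal culture (0.39, SE 0.06, adjusted p = 0.00125). Both sets of libraries were apart, with co-culture above normal culture, and at 36 h the differences were -0.04 and 0.14, neither past the threshold. The change between the times passed under IL-1β (0.58, adjusted p = 0.000526). Col14a1 under IL-1β at 72 h had 15.6, 13.1 and 12.7 FPKM in co-culture, against 10.7, 10.8 and 9.25 FPKM in normal culture (0.39, SE 0.09, adjusted p = 0.00908), a call lost without co-culture replicate 1 (0.31). Without IL-1β at 36 h it had 31, 31.4 and 32.4 FPKM in co-culture, against 43, 47.6 and 45.1 FPKM in normal culture (-0.50, SE 0.09, adjusted p = 0.00055). The direction was thus opposite in the 2 settings, which differ in both time and IL-1β. Col1a2 (0.20, adjusted p = 0.0179) and Col3a1 (0.23, adjusted p = 0.00512) were higher in co-culture under IL-1β at 72 h; Col1a2 was lost without co-culture replicate 1 (0.18) or 2 (0.20) or normal culture replicate 1 (0.13). When the 6 libraries of that comparison were fitted alone, none of its 7 chains passed, and the count was 4 without normal culture replicate 1 or co-culture replicate 1 or 2; normal culture with IL-1β at 72 h had the widest spread of all groups, a residual SD of 0.167 against 0.0853 to 0.119 in the others (log2 scale).

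The remaining changes were in co-culture without IL-1β at 36 h. Col23a1 had 1.23, 1.31 and 1.29 FPKM in co-culture, against 2.24, 2.56 and 2.5 FPKM in normal culture (-0.59, SE 0.06, limma adjusted p = 4.63e-07). Col8a1 had 36.3, 34.7 and 36 FPKM in co-culture, against 26.8, 28.5 and 29.2 FPKM in normal culture (0.33, SE 0.07, adjusted p = 0.00131). Col5a2 had 644, 632 and 638 FPKM in co-culture, against 518, 538 and 525 FPKM in normal culture (0.27, SE 0.05, adjusted p = 0.000459). Col23a1 was lower and the other 2 higher in co-culture, without overlap. Col6a1 (-0.22), Col6a2 (-0.24) and Col15a1 (-0.28) were lower, Col15a1 not without normal culture replicate 2 (-0.24), while Col6a3 did not pass (-0.10). Col5a1 was higher (0.15, adjusted p = 0.044), a call lost under TPM (0.14) and without any co-culture replicate or normal culture replicate 1 or 3 (0.13 to 0.17).

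**Figure D5:**
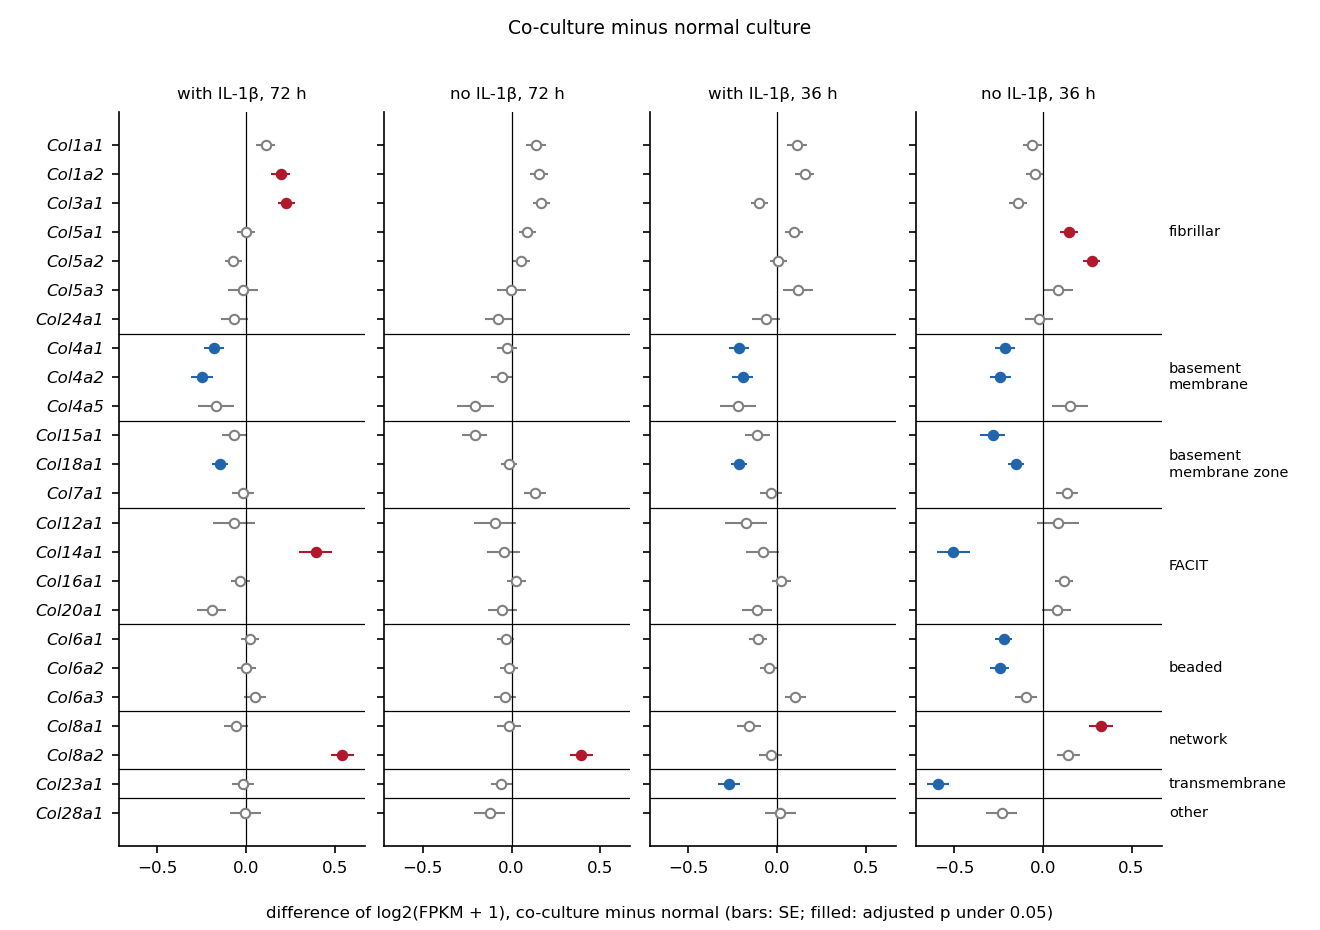
Points give the difference of log2(FPKM + 1), co-culture minus normal culture, for each tested chain with and without IL-1β at 72 h and at 36 h; bars are standard errors and filled points passed at an adjusted p under 0.05. The panel without IL-1β at 72 h has 1 filled point (Col8a2), and Col4a1, Col4a2 and Col18a1 are left of 0 in the other 3 panels.

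Whether IL-1β acted differently in co-culture was tested as an interaction. At 72 h 0 of 24 chains passed with limma, where 3.11% of all genes did, and 3 had an unadjusted p under 0.05 (Col14a1, Col4a2 and Col18a1); with the replicate number as a block 1 passed, Col14a1 (0.44), and 1 passed without normal culture replicate 2 of either treatment or without co-culture replicate 3 with IL-1β. At 36 h 3 passed (6.96% of all genes). The rise of Col8a1 was smaller in co-culture, by 0.49 (SE 0.09, limma adjusted p = 0.00214), and so was that of Col5a2, by 0.27 (adjusted p = 0.02). The rise of Col23a1 was larger in co-culture, by 0.32 (adjusted p = 0.0254). Without IL-1β all 3 genes differed between the cultures, as given above, while under IL-1β Col8a1 (-0.16) and Col5a2 (0.01) did not pass and Col23a1 did (-0.27). The Col5a2 call was lost under TPM (-0.28) and without any 1 of 4 libraries (-0.25 to -0.26; co-culture replicate 3 with IL-1β, co-culture replicate 1 without it, and normal culture replicate 1 of either treatment). The Col23a1 call was lost without any 1 of 6 (0.30 to 0.32; co-culture replicates 1 and 3 with IL-1β and 1 without it, normal culture replicate 2 with it and 2 and 3 without it), under TPM (0.41) or with a pseudocount of 0.1 (0.51), while that of Col8a1 held under every alternative run. The count of chains was 1 after rescaling to TPM and without co-culture replicate 1 without IL-1β or replicate 3 with it, and 8 when the 12 libraries at 36 h were fitted alone.

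Time in culture moved most chains, mainly down. In normal culture without IL-1β 15 of 24 chains were lower at 72 h than at 36 h, where 25.3% of all genes were, and 6 were higher, where 33.1% were. The number higher was 5 without any 1 library of the compared groups. With IL-1β 20 were lower (32%) and 0 higher (37.1%) in normal culture, also with 0 higher at an unadjusted p under 0.05. In co-culture without IL-1β 16 were lower (24.9%) and 4 higher (36.6%), and with IL-1β 19 were lower (28.9%) and 1 higher (35.4%). That 1 was Col14a1 (0.24); the number higher was 0 without replicate 1 or 2 at 36 h or replicate 1 at 72 h, and 2 without replicate 3 at 72 h, while in normal culture with IL-1β it was 1 without replicate 3 of either time. The median change of the chains was -0.47 in normal culture with IL-1β and -0.51 without it, against 0.02 and 0.03 for all genes tested. Col3a1 had 789.9, 749 and 757 FPKM at 72 h, against 2110.3, 2251 and 2125 FPKM at 36 h, in normal culture without IL-1β. The 72 h libraries were all far lower (-1.5, SE 0.05, limma adjusted p = 9.83e-17), and the other 3 changes were -1.19 in co-culture without IL-1β, -1.29 in normal culture with it and -0.96 in co-culture with it. Col5a3 was also lower in all 4 (-1.61 to -1.06), as were Col18a1 (-1.92 to -1.02) and Col16a1 (-0.94 to -0.75). Col4a1 and Col4a2 went the other way without IL-1β in both cultures, and Col4a5 did so in normal culture (0.36, adjusted p = 0.00518) but not in co-culture (-0.0035, adjusted p = 0.979). Col4a1 had 80.4, 90.5 and 87.2 FPKM at 72 h, against 55.4, 53.2 and 57.7 FPKM at 36 h, in co-culture without IL-1β (0.62, SE 0.06, adjusted p = 4.46e-09). With IL-1β the change of Col4a1 did not pass (-0.02 in co-culture and -0.06 in normal culture), while Col4a2 passed as lower at 72 h in both cultures. Without IL-1β Col6a3 was higher at 72 h in co-culture (0.21, adjusted p = 0.00605; not after rescaling to TPM, 0.18) while Col6a1 (-0.61) and Col6a2 (-0.58) were lower. The same times differed in the muscle markers given above and in the chondrocyte markers, whose sum without IL-1β was 1045 to 1141 FPKM at 72 h and 785 to 889.7 FPKM at 36 h. This sum does not hold for every marker. In normal culture without IL-1β, Col2a1, the most abundant, averaged 765 FPKM at 72 h and 302 FPKM at 36 h. There Acan was also higher at 72 h (18.6 against 9.85 FPKM) and Sox9 was lower (26.4 against 30.3 FPKM), with the same directions in co-culture. The macrophage and myeloid markers were higher at 72 h in every condition, in the ranges given above. Without IL-1β the pericyte and smooth muscle markers summed to 110.2 to 120.3 FPKM at 72 h and 81.5 to 86.2 FPKM at 36 h, and the epithelial markers to 15.1 to 21.9 FPKM and 1.29 to 2.09 FPKM. The part of these lists in the changes was not tested.

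The response to IL-1β depended on time for 15 of 24 chains in co-culture, where 28.8% of all genes did, and for 18 in normal culture (45.4%). On the log2(FPKM + 1) scale, Col14a1 changed its response most towards higher values at 72 h, its fall being smaller then. The limma differences were 0.74 in co-culture (adjusted p = 0.00018) and 0.72 in normal culture (adjusted p = 0.000123). Col8a2 changed most towards lower values (-1.43 and -1.76). That scale compresses chains near 1 FPKM. By ratios of mean FPKM, Col23a1 shifted more than Col14a1. In normal culture Col23a1 averaged 1.55 FPKM with IL-1β against 0.427 without it at 72 h, and 2.86 against 2.43 FPKM at 36 h. The co-culture effect depended on time for 2 chains with IL-1β (2.6%), Col3a1 (0.33, adjusted p = 0.0111) and Col8a2, and for 4 without it (4.97%): Col3a1 (0.31, adjusted p = 0.00947), Col14a1 (0.46, adjusted p = 0.0446), Col8a1 (-0.34, adjusted p = 0.0354) and Col23a1 (0.54, adjusted p = 0.000513). The Col14a1 and Col8a1 calls did not hold: that of Col14a1 was lost without any 1 of the 12 libraries but co-culture replicate 2 and normal culture replicate 1 at 72 h (0.37 to 0.49) and that of Col8a1 without any 1 of 9 (-0.31 to -0.36), which left 2 chains without normal culture replicate 1 or 2 or any co-culture replicate at 36 h, or without normal culture replicate 2 or 3 or co-culture replicate 1 or 3 at 72 h.

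Genes that act with these collagens were listed too. Of 12 tested basement membrane partners (laminin chains, nidogens, perlecan and agrin), 3 were higher (18.5% of all genes were) and 7 lower (30.6%) with IL-1β at 72 h in co-culture, and 3 higher (23.1%) and 6 lower (40.3%) in normal culture. At 36 h 7 were higher (23.4%) and 2 lower (35.3%) in co-culture and 8 higher (25.9%) and 2 lower (41.5%) in normal culture. In co-culture agrin, Agrn, was higher at both times (0.29 at 72 h, 0.78 at 36 h), and the laminin chain Lama5 was lower at 72 h (-0.35) and higher at 36 h (0.77). Of 8 tested collagen receptors, 1 was higher (18.5% of all genes) and 5 lower (30.6%) at 72 h in co-culture. In normal culture at 72 h 2 were higher (23.1%) and 5 lower (40.3%). At 36 h 3 were higher (23.4%) and 4 lower (35.3%) in co-culture, and 4 higher (25.9%) and 1 lower (41.5%) in normal culture. At 72 h the 1 or 2 receptors higher are near the 18.5% and 23.1% of all genes that were. The integrin chain Itga2 was higher at 36 h (0.78 in co-culture, 0.90 in normal culture), and Itga10, the collagen-binding integrin chain typical of chondrocytes, was lower in all 4 comparisons (-0.86 to -0.69). Of 30 tested genes for procollagen folding, modification and processing, 11 were higher (18.5% of all genes) and 10 lower (30.6%) with IL-1β at 72 h in co-culture. In normal culture at 72 h 13 were higher (23.1%) and 11 lower (40.3%). The 10 of 30 lower in co-culture are near the 30.6% of all genes, and the 11 of 30 in normal culture are below the 40.3%. At 36 h 6 were higher (23.4% of all genes) and 21 lower (35.3%) in co-culture, and 5 higher (25.9%) and 20 lower (41.5%) in normal culture. The 6 of 30 higher in co-culture are near the share of all genes. The lysyl oxidase family, which cross-links collagens, was divided: Loxl4 fell by 1.55 and Loxl2 rose by 1.25 in co-culture at 72 h. P4ha2, a catalytic chain of collagen prolyl 4-hydroxylase, was 1.01 higher in co-culture at 72 h, and Pcolce, which speeds the trimming of fibrillar procollagens, was lower at 36 h (-0.74). In co-culture against normal culture, 0 of the 12 basement membrane partners passed with limma under IL-1β at 72 h (4 at an unadjusted p under 0.05), under IL-1β at 36 h (3) or without it at 72 h (1). Without IL-1β at 36 h 2 were higher and 2 lower, where 15.5% of all genes passed in either direction. Of the 8 receptors, 1 was higher and 3 lower under IL-1β at 72 h (12.5% of all genes), and 1 was lower at 36 h (10.6%). Without IL-1β, 1 receptor was higher at 72 h (3.4%) and 1 lower at 36 h (15.5%). Of the 30 procollagen genes, 1 was higher under IL-1β at 72 h (12.5%), and 6 were higher and 1 lower at 36 h (10.6%). Without IL-1β, 3 of them were higher at 72 h (3.4%), and 5 higher and 6 lower at 36 h (15.5%).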

How the data were processed

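The 24 libraries were poly(A) mRNA libraries of chondrocytes in 8 groups of 3. The authors deposited 1 table of FPKM values per gene and library; the build was GRCm38 per the submitters' processing notes, and the aligner and counter are not given in the sources used here. FPKM are not counts, so no count test was run. Values were taken as log2(FPKM + 1), and genes with at least 1 FPKM in at least 3 libraries (12178 of 17094) were fitted with limma 3.58.1 in R 4.3.3 (group means over all 24 libraries, 16 residual degrees of freedom, trended empirical Bayes, Benjamini-Hochberg adjustment over the genes tested in each of 18 comparisons, adjusted p under 0.05). Chain ratios were compared with two-sided exact permutation tests. The fit was tested on simulated data. Every member is named; given in full were the up to 3 most abundant of each class and those with a change of at least 1 (log2) past the threshold. The members and lists were chosen with earlier results of these data known. Gene positions are GENCODE vM21 on GRCm38; windows come from RefSeq, in which 29 members matched. Same-numbered replicates deviated together, with every correlation over 0.1, in 1 comparison, co-culture against normal culture with IL-1β at 72 h (0.36, 0.18 and 0.58), where the block left the count of chains at 7. Alternatives were a pseudocount of 0.1, no filter, a filter of 5 FPKM, TPM and median-of-ratios scaling, the compared groups alone, weights per group, a replicate block and each library left out.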

Additional observations from a re-analysis of the deposited data

Results flagged for a closer look

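The effect of IL-1β at 72 h minus that at 36 h (log2 scale, limma adjusted p under 0.05) passed a test of the difference itself for the chains below. In co-culture it was above 0 for Col3a1 (0.23), Col5a1 (0.25), Col5a3 (0.42), Col24a1 (0.43), Col14a1 (0.74), Col6a2 (0.22) and Col23a1 (0.39). In co-culture it was below 0 for Col5a2 (-0.29), Col4a1 (-0.64), Col4a2 (-0.64), Col4a5 (-0.84), Col18a1 (-0.83), Col7a1 (-0.47), Col8a1 (-0.57) and Col8a2 (-1.43). In normal culture it was above 0 for Col1a1 (0.35), Col1a2 (0.21), Col3a1 (0.21), Col5a1 (0.28), Col5a3 (0.46), Col24a1 (0.37), Col14a1 (0.72), Col6a2 (0.40) and Col23a1 (0.67). In normal culture it was below 0 for Col5a2 (-0.43), Col4a1 (-0.49), Col4a2 (-0.40), Col4a5 (-1.25), Col18a1 (-0.76), Col7a1 (-0.50), Col12a1 (-0.57), Col8a1 (-1.02) and Col8a2 (-1.76). A value above 0 means a larger rise or a smaller fall at 72 h, so Col5a3 and Col14a1 are both above 0 although Col5a3 rose and Col14a1 fell. The effect of co-culture, 72 h minus 36 h, differed with IL-1β for Col3a1 (0.33) and Col8a2 (0.58). The effect of co-culture, 72 h minus 36 h, differed without IL-1β for Col3a1 (0.31), Col14a1 (0.46), Col8a1 (-0.34) and Col23a1 (0.54). The effect of IL-1β in co-culture minus that in normal culture at 36 h differed for Col5a2 (-0.27), Col8a1 (-0.49) and Col23a1 (0.32). In addition to the calls described with the comparisons, that of Col1a2 in normal culture was lost without replicate 3 with IL-1β at 36 h or replicate 2 with IL-1β at 72 h (0.16 at the lowest), and that of Col6a2 in co-culture without any 1 of 5 libraries (0.19 to 0.22). No explanation was tested.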

How the results depend on the processing

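No change of a chain reversed its direction past the threshold under any alternative run. Counts moved by over 1.5 times as follows. With a filter of 5 FPKM, which tests fewer chains, 3 were higher with IL-1β at 72 h in co-culture, while 2 passed for co-culture without IL-1β at 72 h. The count for co-culture without IL-1β at 72 h, 1 in the report, was also 2 with median-of-ratios scaling, 4 with the compared groups alone and 5 with weights per group. For co-culture under IL-1β at 36 h it was 7 with weights per group, and at 72 h 0 with the compared groups alone and 1 with weights. The interaction at 36 h gave 5 with no filter, 1 with TPM, 8 with the compared groups alone and 9 with weights. For 72 h against 36 h with IL-1β, 1 chain was higher in normal culture with no filter, and 0 in co-culture with TPM or median-of-ratios scaling. The time dependence of the co-culture effect gave 2 with TPM and 13 with the compared groups alone or weights without IL-1β, and 1 with the compared groups alone or weights with it. Leaving out 1 library gave 2 to 3 for co-culture under IL-1β at 36 h, 4 to 8 at 72 h, 1 to 4 for the interaction at 36 h, 0 to 1 at 72 h, 0 to 1 higher at 72 h than at 36 h in normal culture with IL-1β, 0 to 2 in co-culture with IL-1β, and 2 to 5 for the time dependence of the co-culture effect without IL-1β. With the replicate number as a block, within time, 2 chains passed for co-culture without IL-1β at 72 h and 1 for the interaction at 72 h. Over 432 single results 7 calls were lost and 12 gained. The labels do not say what libraries with the same replicate number share. Some other comparisons had weaker positive correlations, such as 0.12, 0.19 and 0.03 for IL-1β in normal culture at 72 h. TPM shifted the median of all genes under IL-1β in normal culture at 72 h to -0.20, against -0.08. The causes were not tested. Read depth is unknown, so low chains such as Col24a1 and Col20a1 carry an error that cannot be given.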
